A study of Mus musculus with 24 samples.

Results

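The genes described here copy DNA or carry a cell through mitosis: 41 genes, taken by their symbols from the 18740 genes listed in the deposited FPKM tables (fragments per kilobase of transcript, scaled to library size). The rule uses gene symbols and no expression value, but the members were chosen with earlier results of these data known. Of the 41 members, 23 act in DNA replication and 18 in mitosis, and the 2 sets are reported apart.

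RNA was measured in bone marrow-derived macrophages (BMDMs) of C57BL/6 mice, 10 weeks old, either wild-type (WT) or DRD5-/-. DRD5 is dopamine receptor 5, and the knockout was made with CRISPR-Cas9 in the whole animal, so that every cell of the marrow carried it during growth in L929-conditioned medium. M1 cells received LPS at 100 ng/ml with IFN-γ at 50 ng/ml, and M2 cells received IL-4 at 10 ng/ml with IL-13 at 10 ng/ml, each for 12 h. Dopamine (DA), at 20 µM, was present or absent. This gives 8 groups of 3 libraries: M1 WT, M1 WT with DA, M1 DRD5-/-, M1 DRD5-/- with DA, and the same 4 groups in M2. The labels do not say whether the 3 libraries of a group came from separate animals or cultures. They may be technical replicates, and the p-values then measure only the spread between these samples. Depth is unknown, because the tables hold no counts, lengths or totals.

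DNA is copied once per cycle, in S phase. Cyclin E and E2F factors start it, CDC6 and CDT1 load the ring-shaped MCM helicase onto origins, GINS activates the helicase, and primase, DNA polymerases and the sliding clamp PCNA then build the new strands from nucleotides that ribonucleotide reductase and its partners supply. Mitosis needs a later set of genes, for cyclin B and CDK1, the Aurora and Polo kinases, the centromere, the spindle and the anaphase-promoting complex, which are usually transcribed in G2. Bone marrow-derived macrophages divide in culture when given macrophage colony-stimulating factor, and strong inflammatory stimuli are known to slow that division.

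Drd5 itself cannot check the knockout labels in these tables. The M1 tables do not list it in 12 of 12 libraries. The M2 tables list it at 0 in 10 of 12 libraries, at 0.06 FPKM in M2 WT replicate 2 and at 0.03 FPKM in DA-treated M2 WT replicate 2.

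The cells matched their label as macrophages, since 8 of 8 macrophage markers were at 1 FPKM or more in every library, led by the lysozyme gene Lyz2. Their summed level was 7263 to 8245 FPKM in M1, 8349 to 8388 FPKM in DA-treated M2 WT and 10719 to 11297 FPKM in the other M2 groups. With DA in M2 WT, 4 of the 8 were lower (Cd14 at -1.41, Mertk at -0.91, Lyz2 at -0.52, Csf1r at -0.50) and 1 was higher (Itgam at 0.58). The 6 M1 markers, such as Nos2, summed to 4507 to 5019 FPKM in M1 libraries and 13.5 to 23.8 FPKM in M2 libraries. The M2 marker Mrc1 read 245 to 541 FPKM in M2 libraries and 10.4 to 19.3 FPKM in M1 libraries.

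Markers of other cells were low or absent, with 3 exceptions. T and NK cell markers summed to at most 0.27 FPKM, erythroid markers to at most 2.06, and mast cell and basophil markers to at most 0.45. Dendritic cell markers summed to at most 3.14 FPKM, led by Xcr1 in M1. Progenitor markers, which matter here because marrow progenitors divide, had 7 of 8 genes listed. Their sum was 7.53, 8.28 and 7.77 FPKM in untreated M2 WT and 5.50, 5.52 and 5.56 with DA, nearly all of it Cd34 and Kit, while Elane and Mpo, which define that stage, were at or near 0. In M1 the sum was 0.63 to 0.84 FPKM, against 5.50 to 9.11 over all M2 libraries, and both Cd34 (-2.12) and Kit (-1.55) were lower in untreated M1 WT than in M2 WT. Neutrophil markers summed to 2.12, 2.52 and 2.30 FPKM in untreated M2 WT and 7.85, 7.49 and 8.11 with DA, led by Mmp8. In M1 the same sum was far larger, at 58.8 to 72.9 FPKM in untreated WT, 98.4 to 119.5 in DA-treated WT and 27.7 to 32.1 in the 2 DRD5-/- groups. Of 7 neutrophil markers tested in M1, 6 were lower in untreated DRD5-/- than in WT (S100a9 at -3.24, Ngp at -3.11). Stromal markers, led by Dcn, summed to 129, 127 and 128 FPKM in untreated M2 WT and 105, 104 and 105 with DA, and to 80.1 to 82.2 in untreated and 87.6 to 89.0 in DA-treated M2 DRD5-/-, against 4.37 to 5.12 FPKM over the M1 libraries. With DA in M2 WT, Dcn (-0.78) and Pdgfra (-0.83) were lower while Col3a1 (0.30) and Col1a1 (0.29) were higher, and 6 of 6 stromal markers were lower in untreated M2 DRD5-/- than in WT. The part of these genes in the results was not tested.

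Many promoters of the members held letters known to bind cell cycle regulators, and the share with each motif differed between the replication and the mitosis members. E2F factors bind a site searched here as TTTSSCGC, where S is C or G. The DREAM and B-MYB complexes bind the cell cycle homology region (CHR), searched as TTTGAA, and the factor NF-Y binds the box CCAAT. Both strands were read in RefSeq windows of 300 bases, from 250 before to 50 after a transcript start of the table, on GRCm38.p6. That start is the outer 5′ end of the gene in RefSeq for 21 of 35 windows and lies inside the gene for 14. Windows were found for 34 of 41 members, and for Ccne2, Gins1, Gins2, Mcm4, Aurkb, Ccna2 and Tpx2 there was none.

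Among the matched replication members, 8 of 19 (42.1%) held an E2F site, against 1 of 15 mitosis members (6.67%) and 2.60% of all 27025 genes with a window. The 8 were Cdc6, Cdt1, Mcm3, Mcm5, Mcm6, Mcm7, Pola1 and Rfc3, and the start used lies inside the gene by 442 bases for Cdc6, 232 for Pola1 and 228 and 845 for the 2 windows of Mcm7. For the CHR letters the split ran the other way, with 1 of 19 replication members (5.26%), Mcm2, and 11 of 15 mitosis members (73.3%), against 20.2% of all genes. CCAAT was in 11 of 19 replication members (57.9%) and 14 of 15 mitosis members (93.3%), against 41.1% of all genes. A match describes the letters in a window and does not show that a factor was bound there.

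The 200 bases before the start used are shown for 3 replication members with E2F letters and 4 mitosis members with CHR letters, Cdk1 having both. Each is printed 5′ to 3′ on the gene's own strand, in lower case, with E2F and CHR letters on either strand in capitals. The Cdc6 stretch lies wholly inside the gene, and the last 41 bases for Mcm5 and 71 for Mki67 do too. In Mcm5 and Mcm6, matches on the 2 strands overlap and form 1 stretch. The stretches lie at chr8:75109309-75109508 (+) for Mcm5, chr1:128359706-128359905 (-) for Mcm6, chr11:98907951-98908150 (+) for Cdc6, chr10:69352913-69353112 (-) for Cdk1, chr7:135716380-135716579 (-) for Mki67, chr4:118437344-118437543 (-) for Cdc20 and chr19:37376182-37376381 (+) for Kif11.
Mcm5: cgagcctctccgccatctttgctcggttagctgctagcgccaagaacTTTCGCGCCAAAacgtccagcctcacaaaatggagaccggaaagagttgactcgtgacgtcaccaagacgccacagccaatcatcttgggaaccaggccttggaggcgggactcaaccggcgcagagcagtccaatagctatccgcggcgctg
Mcm6: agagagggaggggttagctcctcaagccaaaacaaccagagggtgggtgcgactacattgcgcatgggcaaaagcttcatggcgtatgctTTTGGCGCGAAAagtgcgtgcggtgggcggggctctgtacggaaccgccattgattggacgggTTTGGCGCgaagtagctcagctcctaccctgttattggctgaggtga
Cdc6: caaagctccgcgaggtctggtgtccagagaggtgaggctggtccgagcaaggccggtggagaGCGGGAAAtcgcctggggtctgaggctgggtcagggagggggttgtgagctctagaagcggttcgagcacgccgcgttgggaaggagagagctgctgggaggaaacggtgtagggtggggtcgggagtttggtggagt
Cdk1: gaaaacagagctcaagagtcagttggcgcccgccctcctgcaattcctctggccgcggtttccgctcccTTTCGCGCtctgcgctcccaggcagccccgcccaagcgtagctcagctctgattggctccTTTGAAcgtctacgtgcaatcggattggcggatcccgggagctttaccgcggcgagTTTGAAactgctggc
Mki67: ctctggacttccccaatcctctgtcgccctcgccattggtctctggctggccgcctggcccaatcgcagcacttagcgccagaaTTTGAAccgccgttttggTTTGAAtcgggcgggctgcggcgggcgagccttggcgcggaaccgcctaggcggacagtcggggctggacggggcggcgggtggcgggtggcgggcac
Cdc20: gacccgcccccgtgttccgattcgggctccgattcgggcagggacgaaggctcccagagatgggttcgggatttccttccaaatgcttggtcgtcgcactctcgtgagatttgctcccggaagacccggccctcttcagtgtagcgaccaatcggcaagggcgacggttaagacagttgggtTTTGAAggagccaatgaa
Kif11: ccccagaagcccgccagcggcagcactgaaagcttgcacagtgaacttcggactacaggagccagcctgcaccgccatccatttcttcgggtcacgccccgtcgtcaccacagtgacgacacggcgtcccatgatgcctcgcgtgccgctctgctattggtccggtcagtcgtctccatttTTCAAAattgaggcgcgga

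At the level of the whole set, replication members stood out in 1 group, and mitosis members moved far less. The mean log2(FPKM + 1) over the 23 replication members was 3.02 to 3.04 in untreated M2 WT, 4.48 to 4.51 in DA-treated M2 WT, 3.05 to 3.08 in untreated M2 DRD5-/- and 2.91 to 2.94 in DA-treated M2 DRD5-/-. Over the 18 mitosis members the same 4 groups read 2.10 to 2.13, 2.35 to 2.39, 2.13 to 2.15 and 2.06 to 2.11. In the 12 M1 libraries the replication mean lay between 2.10 and 2.18 and the mitosis mean between 1.32 and 1.45. In these bulk samples, more cells in S phase and more RNA per cell cannot be told apart.

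**Figure D1:**
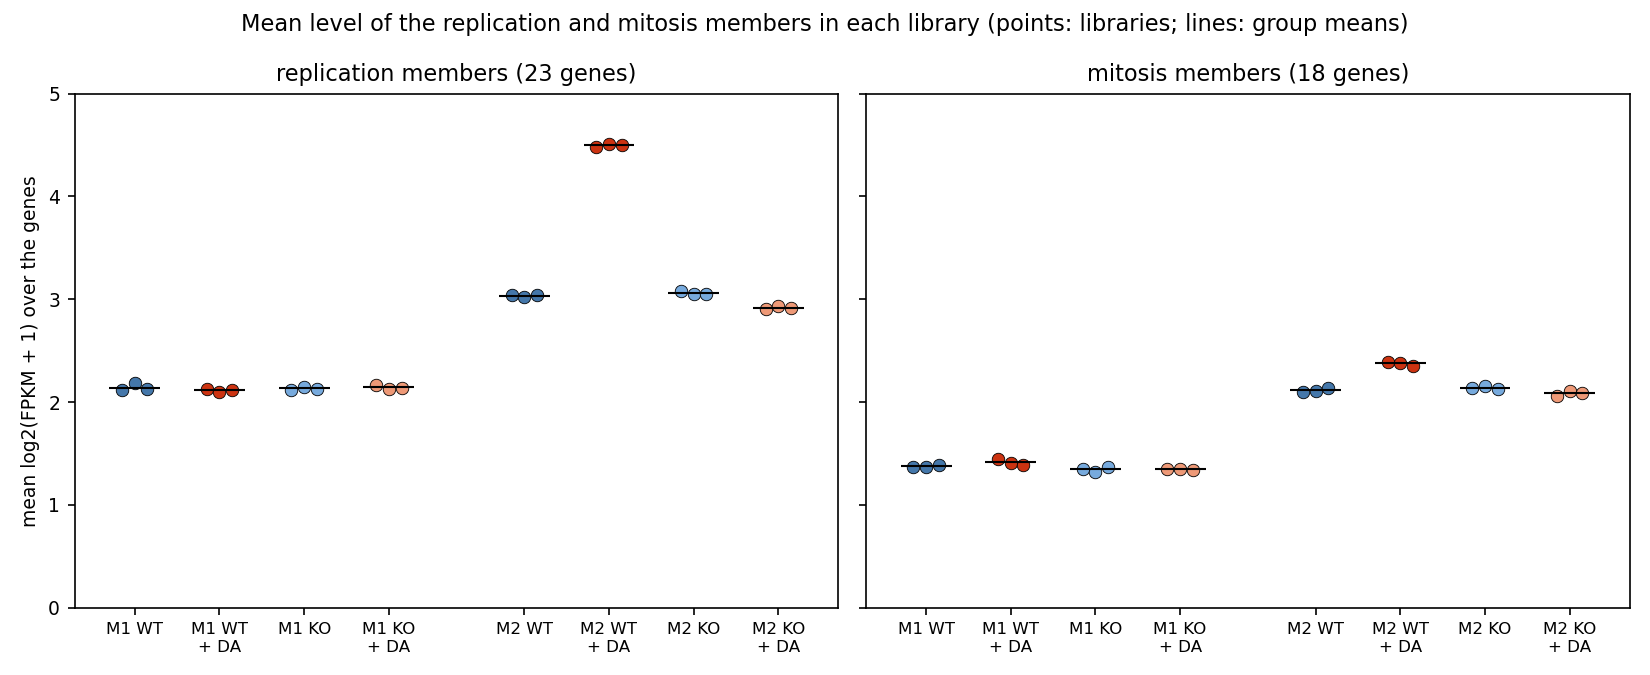
Mean log2(FPKM + 1) over the 23 replication members (left) and the 18 mitosis members (right) in each of the 24 libraries, with points for libraries, lines for group means and KO for DRD5-/-. Replication members read 4.48 to 4.51 in DA-treated M2 WT and 3.08 or less in every other group.

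The first question was whether DA changes these genes in WT M2 cells. In limma, 22 of 23 replication members were higher with DA at an adjusted p under 0.001 and at least 1.2-fold, the cutoffs in the study's methods, and 0 were lower. Over all 10735 genes tested, 25.9% were higher and 20.4% lower. The median log2 fold change was 1.49 for the replication members and 0.03 for all genes. For 23 of 23 replication members, all 3 DA libraries lay above all 3 untreated libraries, which held for 41.5% of all genes, while 34.5% lay wholly below.

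All 6 helicase genes rose with DA. Mcm5, with the largest log2 fold change of the set, read 9.41, 8.64 and 8.87 FPKM in untreated M2 WT, 53.5, 54.6 and 53.3 with DA, 9.33, 9.50 and 9.55 in untreated DRD5-/- and 8.09, 7.35 and 7.63 in DA-treated DRD5-/-. Its 3 DA-treated WT libraries are the high ones, 6.00-fold above untreated WT by mean FPKM and far from any other M2 library. Its log2 fold change was 2.46 (95% interval 2.38 to 2.54, adjusted p 2.6e-15). Mcm2, another subunit, read 8.98, 8.67 and 9.15 FPKM in untreated WT, 43.5, 45.4 and 43.0 with DA, 8.59, 8.79 and 8.85 in untreated DRD5-/- and 6.71, 7.82 and 7.78 in DA-treated DRD5-/-. Again the DA-treated WT libraries stand alone, with a log2 fold change of 2.18 (adjusted p 5.63e-14). Mcm6, the most abundant of the helicase subunits, read 25.7, 25.5 and 26.2 FPKM without DA and 85.8, 88.4 and 89.0 with it, a log2 fold change of 1.73 (adjusted p 2.6e-15). The other 3 subunits rose as well, by 1.80 for Mcm4, 1.77 for Mcm7 and 1.74 for Mcm3 on the log2 scale.

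The genes that load and activate the helicase rose with it. Cdc6, the loading factor, read 1.07, 0.81 and 1.06 FPKM in untreated M2 WT, 7.14, 6.03 and 7.15 with DA, 0.94, 0.92 and 0.98 in untreated DRD5-/- and 0.98, 1.30 and 0.67 in DA-treated DRD5-/-. Its mean FPKM was 6.91-fold higher with DA in WT, but its log2 fold change was 1.97, since adding 1 to each FPKM understates change in genes this low. Cdt1, its partner in loading, read 20.3, 21.2 and 18.3 FPKM without DA and 59.5, 55.6 and 57.4 with it. Gins1, a subunit of the GINS complex, read 2.46, 3.07 and 3.06 FPKM without DA and 12.1, 12.5 and 12.6 with it. In neither gene do the WT groups overlap, and their log2 fold changes were 1.49 and 1.80. Gins2 rose by 1.61 on the same scale.

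Among the genes that build the new strand, the clamp was by far the most abundant and rose by the smallest step past the threshold. Pcna read 232, 233 and 232 FPKM in untreated M2 WT, 399, 412 and 403 with DA, 255, 262 and 248 in untreated DRD5-/- and 282, 291 and 283 in DA-treated DRD5-/-. All DA-treated WT libraries exceed all others, and the 3 DA-treated DRD5-/- libraries exceed the untreated ones of both genotypes. Its log2 fold change in WT was 0.80 (adjusted p 9.2e-13), or 1.74-fold by mean FPKM. The clamp loader genes Rfc4 and Rfc3 rose by 1.25 and 0.97, the primase gene Prim1 by 1.48 and the polymerase alpha gene Pola1 by 1.10.

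Genes for uracil excision and nucleotide supply ranged widely. Ung, whose product removes uracil from DNA, read 2.45, 2.08 and 2.25 FPKM in untreated M2 WT, 15.6, 13.8 and 14.6 with DA, 2.84, 2.64 and 2.41 in untreated DRD5-/- and 1.51, 1.91 and 1.48 in DA-treated DRD5-/-. It is high in DA-treated WT and lowest in DA-treated DRD5-/-, with no overlap between the 2 DRD5-/- groups. Its log2 fold change in WT was 2.26 (adjusted p 2.51e-12). Tyms, the thymidylate synthase gene, read 6.02, 5.75 and 6.31 FPKM without DA and 7.05, 7.68 and 6.98 with it in WT. It is the 1 replication member that did not pass, with a log2 fold change of 0.23 and an adjusted p of 0.00746, although its 3 DA libraries lay above the 3 untreated ones. The ribonucleotide reductase genes Rrm2 and Rrm1 rose by 1.30 and 1.05, and the thymidine kinase gene Tk1 by 1.15.

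Genes that start S phase rose too. Ccne2, a cyclin E gene, read 1.29, 1.08 and 0.97 FPKM in untreated M2 WT and 5.43, 5.55 and 5.41 with DA. Ccne1, the other cyclin E gene, read 2.64, 2.52 and 2.55 FPKM without DA and 5.35, 5.65 and 5.92 with it. E2f1, a transcription factor for many of these genes, read 16.5, 15.8 and 15.2 FPKM without DA and 31.9, 32.1 and 32.4 with it. None of the 3 shows overlap between the WT groups, and the log2 fold changes were 1.62, 0.89 and 0.98.

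**Figure D2:**
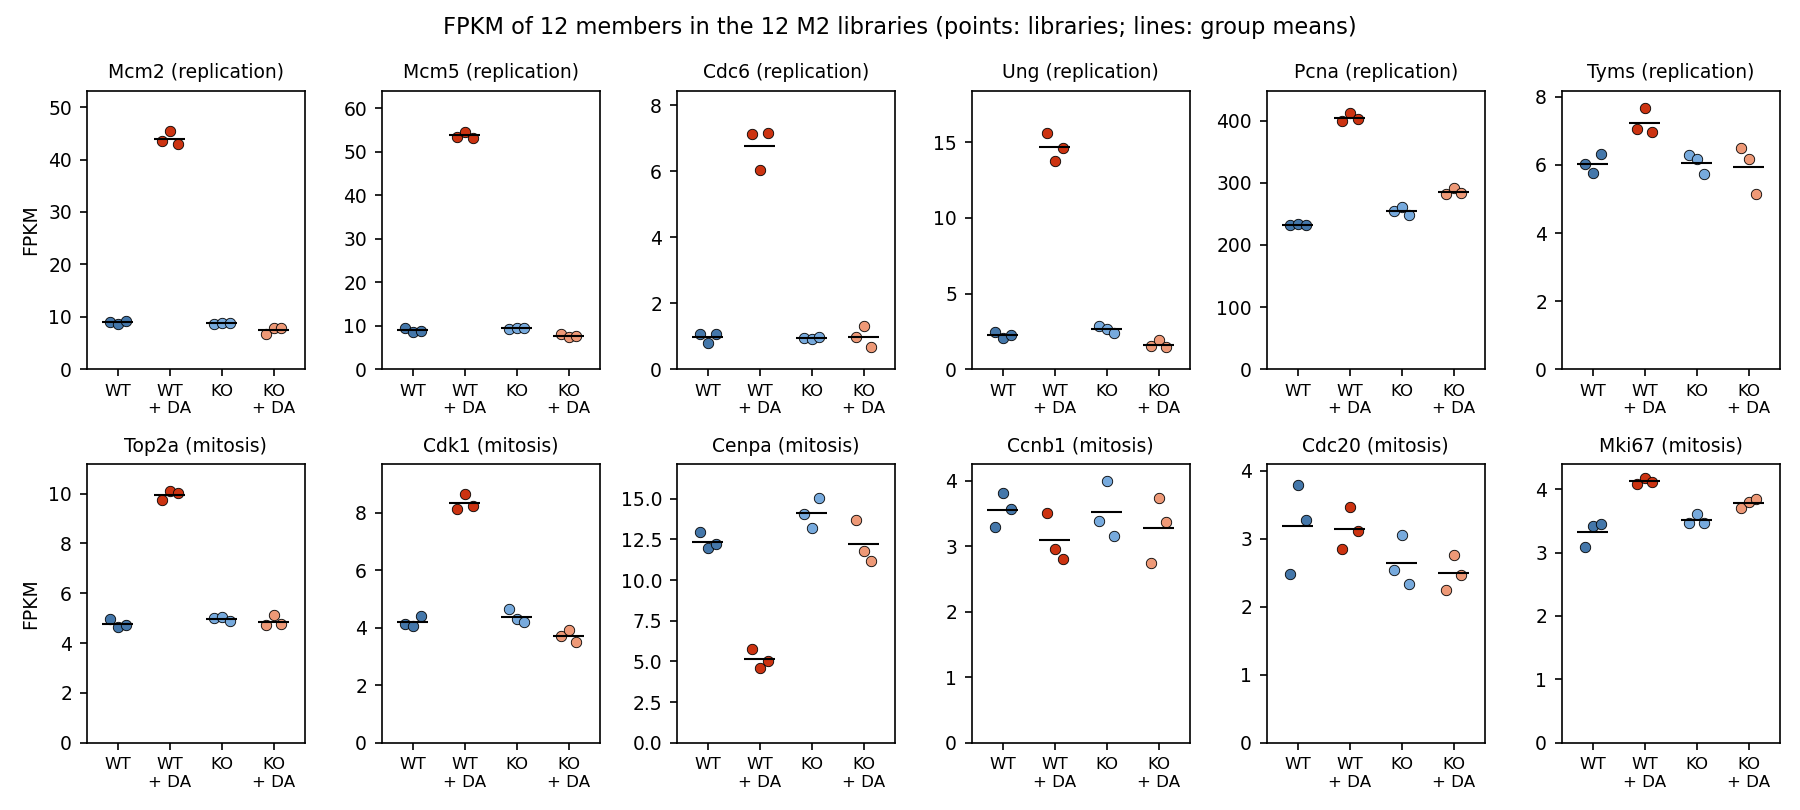
FPKM of 6 replication members (top) and 6 mitosis members (bottom) in the 12 M2 libraries, with points for libraries, lines for group means and KO for DRD5-/-. Mcm2, Mcm5, Cdc6 and Ung are high in DA-treated WT alone, Cenpa is low there (4.61 to 5.78 FPKM), and Ccnb1, Cdc20 and Tyms differ little between groups.

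Of the 17 mitosis members that could be tested in M2, 6 were higher with DA in WT, 1 was lower and 10 did not pass, against 25.9% higher and 20.4% lower over all genes. Those counts are near the background, and nothing about the members is read from them alone. Their median log2 fold change was 0.25. Cenpe, a centromere motor gene, was under the filter of 1 FPKM in 3 libraries, and Bub1 passed that filter only through the DA-treated WT libraries. At an unadjusted p under 0.05, 11 of the 17 were higher and 1 lower, beside 4445 higher and 3699 lower of all 10735 genes.

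On the log2(FPKM + 1) scale, Top2a and Cdk1 had the 2 largest increases in this set. Adding 1 understates change in low genes, and by mean FPKM Bub1 rose by a larger factor. Bub1 read 0.78, 0.59 and 0.69 FPKM in untreated M2 WT and 1.76, 1.52 and 1.67 with DA. Top2a, the topoisomerase that untangles replicated DNA, read 4.96, 4.66 and 4.71 FPKM in untreated M2 WT, 9.75, 10.1 and 10.0 with DA, 4.99, 5.04 and 4.89 in untreated DRD5-/- and 4.71, 5.11 and 4.75 in DA-treated DRD5-/-. Cdk1, the mitotic kinase, read 4.15, 4.06 and 4.40 FPKM in untreated WT, 8.14, 8.67 and 8.23 with DA, 4.64, 4.30 and 4.20 in untreated DRD5-/- and 3.71, 3.92 and 3.51 in DA-treated DRD5-/-. In both genes the DA-treated WT libraries are apart from the other 9, with log2 fold changes of 0.92 and 0.85. Ccna2, the cyclin A of S and G2 phases, rose by 0.69 and Bub1, a spindle checkpoint kinase gene that passed the filter only through the high group, by 0.65. Tpx2, a spindle assembly gene, rose by 0.64 and Aurka, the Aurora A kinase gene, by 0.58.

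Cenpa went the other way. This centromeric histone H3 variant, the most abundant mitosis member in M2, read 12.9, 12.0 and 12.2 FPKM in untreated M2 WT, 5.78, 4.61 and 5.03 with DA, 14.0, 13.2 and 15.1 in untreated DRD5-/- and 13.7, 11.8 and 11.2 in DA-treated DRD5-/-. DA-treated WT is the low group and overlaps no other. Its log2 fold change was -1.13 (adjusted p 7.4e-09), and it is the 1 mitosis member lower in all 3 DA libraries than in all 3 untreated ones.

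The other 10 mitosis members tested did not pass. Ccnb1, a cyclin B gene, read 3.29, 3.81 and 3.57 FPKM in untreated M2 WT and 3.50, 2.95 and 2.81 with DA, and the groups overlap. Cdc20, an activator of the anaphase-promoting complex, read 2.48, 3.79 and 3.27 FPKM without DA and 2.85, 3.46 and 3.12 with it, and the DA values lie inside the untreated range. Ube2c, an enzyme of the same complex and the second most abundant mitosis member in M2, had a log2 fold change of 0.18 (adjusted p 0.0675). Mki67, the proliferation antigen Ki-67, read 3.09, 3.42 and 3.45 FPKM without DA and 4.08, 4.18 and 4.11 with it. Its groups do not overlap and its adjusted p was 0.000325, but its log2 fold change of 0.25 is under 1.2-fold on that scale. Among the others, Ccnb2, Plk1, Aurkb, Birc5, Bub1b and Kif11 had log2 fold changes between -0.01 and 0.27. Leaving out 1 library gave 6 to 8 mitosis members past the threshold, 8 without M2 WT replicate 2 or 3 and 6 without any 1 of the 3 DA-treated WT libraries.

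**Figure D3:**
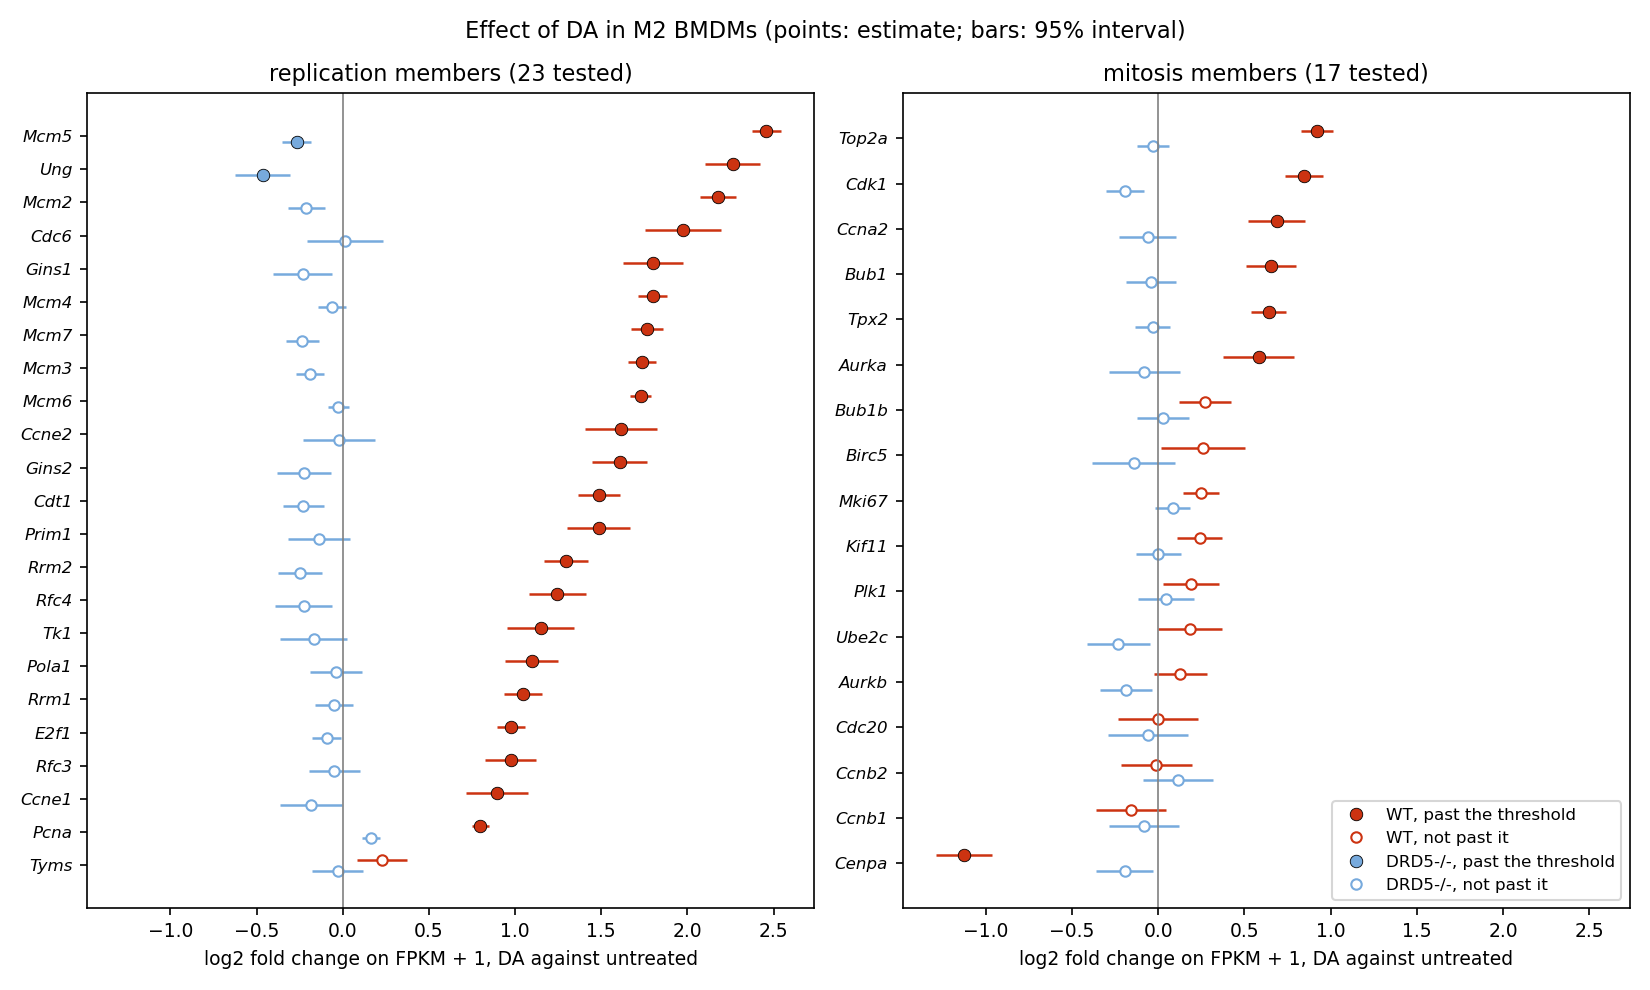
Log2 fold change on FPKM + 1 of DA against untreated in M2 cells for 23 replication members (left) and 17 mitosis members (right), with 95% intervals. In WT 22 of 23 replication members and 7 of 17 mitosis members passed the threshold, and in DRD5-/- 2 and 0 did.

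The second question was whether the change needs DRD5. In M2 DRD5-/- cells 0 of 23 replication members were higher with DA and 2 were lower in limma, against 3.37% higher and 0.652% lower over all genes. At an unadjusted p under 0.05, 1 was higher and 12 were lower (2511 and 2059 of all 10735 genes), and 21 of 23 log2 fold changes were negative, with a median of -0.17 beside 0.01 for all genes. Ung (-0.47, adjusted p 0.000393) and Mcm5 (-0.27, adjusted p 0.000232) were the 2 that passed, each with all 3 DA libraries below all 3 untreated ones. Pcna, higher in 3 of 3 DA libraries, had an adjusted p of 0.000201 but a log2 fold change of 0.16, and Mcm6 had one of -0.03.

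Both of those calls lie near the threshold, and without any 1 library the log2 fold change stayed between -0.54 and -0.42 for Ung and between -0.30 and -0.24 for Mcm5. Ung no longer passed without M2 DRD5-/- replicate 1 or 2 or DA-treated M2 DRD5-/- replicate 1 or 3, and Mcm5 without M2 DRD5-/- replicate 2 or 3 or DA-treated replicate 2 or 3. The count was therefore 0 without M2 DRD5-/- replicate 2 or DA-treated replicate 3 and 1 without each of the other 4 libraries of these groups. Without the filter on low values Ung also missed the threshold (adjusted p 0.00232), leaving 1. Of all genes past the threshold, 83.8% were higher with DA, and 73.3% after median-of-ratios scaling, which rescales each library by its median ratio to the others.

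Mitosis members gave 0 of 17 past the threshold in M2 DRD5-/-, with 4 at an unadjusted p under 0.05, all 4 lower, and a median of -0.06. Over all 10735 genes 2511 were higher and 2059 lower at that unadjusted level, so 4 of 17 is near the background. Cenpa (-0.19, adjusted p 0.0675) and Ube2c (-0.23, adjusted p 0.0541), the 2 most abundant, did not pass. Without DA-treated M2 DRD5-/- replicate 3 the count was 1.

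The difference between the genotypes was then tested directly, as the DA effect in WT minus that in DRD5-/-. In M2, 22 of 23 replication members had a larger effect in WT and 0 a smaller one, against 22.8% and 20.4% of all genes, with a median of 1.64 beside 0.01. The differences were 2.73 for Ung (adjusted p 3.37e-11), 2.73 for Mcm5 (adjusted p 8.43e-14), 2.39 for Mcm2 (adjusted p 2.13e-12) and 2.03 for Gins1 (adjusted p 1.51e-09). Pcna, the most abundant, had 0.64 (adjusted p 8.59e-10) and Mcm6 had 1.75 (adjusted p 2.07e-13). Tyms, with 0.26 (adjusted p 0.0276), again was the 1 that did not pass.

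Among mitosis members 6 had a larger DA effect in WT and 1 a smaller one, of 17, with a median of 0.32. Over all genes the shares were the 22.8% and 20.4% above, so these counts too are near the background. The differences past the threshold were led by Cdk1 at 1.04, Top2a at 0.95, Cenpa at -0.93 and Ccna2 at 0.75. Ube2c had 0.41 (adjusted p 0.00771) and did not pass. The count lay between 5 and 7 when 1 library was left out. Bub1 was under the filter without any 1 of the 3 DA-treated WT libraries, and Aurka lost its call in 9 of 12 cases: without M2 DRD5-/- replicate 2 or 3, any DA-treated DRD5-/- library, M2 WT replicate 1 or 2, or DA-treated WT replicate 1 or 3. Its adjusted p was 0.000594 with all libraries and at most 0.00211 in those cases.

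Untreated cells of the 2 genotypes were then set side by side. Between M2 DRD5-/- and M2 WT without DA, limma called 0 of 23 replication members and 0 of 17 mitosis members, against 1.37% higher and 4.15% lower over all genes. At an unadjusted p under 0.05, 4 replication members (2 higher, 2 lower) and 1 mitosis member (higher) passed, beside 1244 higher and 2777 lower of all genes. The medians were 0.00 and 0.05, beside -0.03. Pcna was 0.13 higher in DRD5-/- on the log2 scale (adjusted p 0.000849, 3 of 3 libraries above WT), under the 1.2-fold cutoff. Of all calls 24.8% were higher in DRD5-/-, and 37.7% after median-of-ratios scaling.

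With DA present, M2 WT exceeded M2 DRD5-/- in 22 of 23 replication members, with 0 lower, against 29.2% higher and 20.4% lower over all genes. The median was 1.63, led by Mcm5 at 2.66, Ung at 2.57, Mcm2 at 2.42 and Mcm7 at 2.05, while Pcna differed by 0.50 and Mcm6 by 1.86. Of 17 mitosis members 6 were higher and 1 lower in WT, led by Cenpa at -1.11, Cdk1 at 0.99, Top2a at 0.90 and Ccna2 at 0.80. That count of 7 was 8 without DA-treated M2 DRD5-/- replicate 3 and 6 without any 1 of the 3 DA-treated M2 WT libraries, which Bub1 needs to pass the filter. This comparison and the DA effect in WT share the DA-treated WT libraries, so their values are not independent.

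M1 cells gave a different picture for the same DA treatment. In M1 WT, limma called 1 of 19 tested replication members higher and 1 lower with DA, against 4.73% higher and 9.60% lower over all 10040 genes, which is near the background. At an unadjusted p under 0.05, 2 were higher and 6 lower, beside 1554 higher and 3695 lower of all genes, with a median of -0.02 beside -0.07. Of the 41 members 30 could be tested in M1. Mcm2, Cdc6, Ung and Pola1 of the replication set and Ccna2, Ccnb2, Plk1, Bub1b, Cdc20, Cenpe and Kif11 of the mitosis set were under the filter, and Rrm2 passed it only through the DA-treated WT libraries.

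Pcna was the higher gene. It read 216, 207 and 212 FPKM in untreated M1 WT, 270.2, 254 and 260 with DA, 198, 204 and 197 in untreated DRD5-/- and 199, 196 and 192 in DA-treated DRD5-/-. DA-treated WT is highest and overlaps no other group, and its log2 fold change was 0.30 (adjusted p 1.15e-06). Gins2 was the lower gene, at 5.99, 6.14 and 5.44 FPKM in untreated M1 WT, 4.29, 4.14 and 4.09 with DA, 6.09, 5.81 and 5.49 in untreated DRD5-/- and 6.49, 5.90 and 5.69 in DA-treated DRD5-/-. The DA-treated WT libraries lie below the other 9, with a log2 fold change of -0.41 (adjusted p 5.57e-05). Gins2 thus fell with DA in M1 WT and rose in M2 WT, where it read 5.52, 6.44 and 5.99 FPKM without DA and 20.5, 21.3 and 19.0 with it. Ccne1, the second most abundant replication member in M1, had a log2 fold change of 0.02.

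Mitosis members in M1 WT gave 0 of 11 past the threshold, with 7 at an unadjusted p under 0.05, 3 higher and 4 lower, and a median of 0.00. Beside the 1554 higher and 3695 lower of all 10040 genes at that level, this is near the background. Tpx2, the most abundant, was lower in 3 of 3 DA libraries at -0.23 (adjusted p 7.44e-05), under 1.2-fold on that scale. Aurkb, the Aurora B kinase gene, had -0.40 (adjusted p 0.00199, lower in 3 of 3), and Cenpa had 0.04. Of all genes called in this comparison 33.0% were higher, and 56.0% after median-of-ratios scaling.

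**Figure D4:**
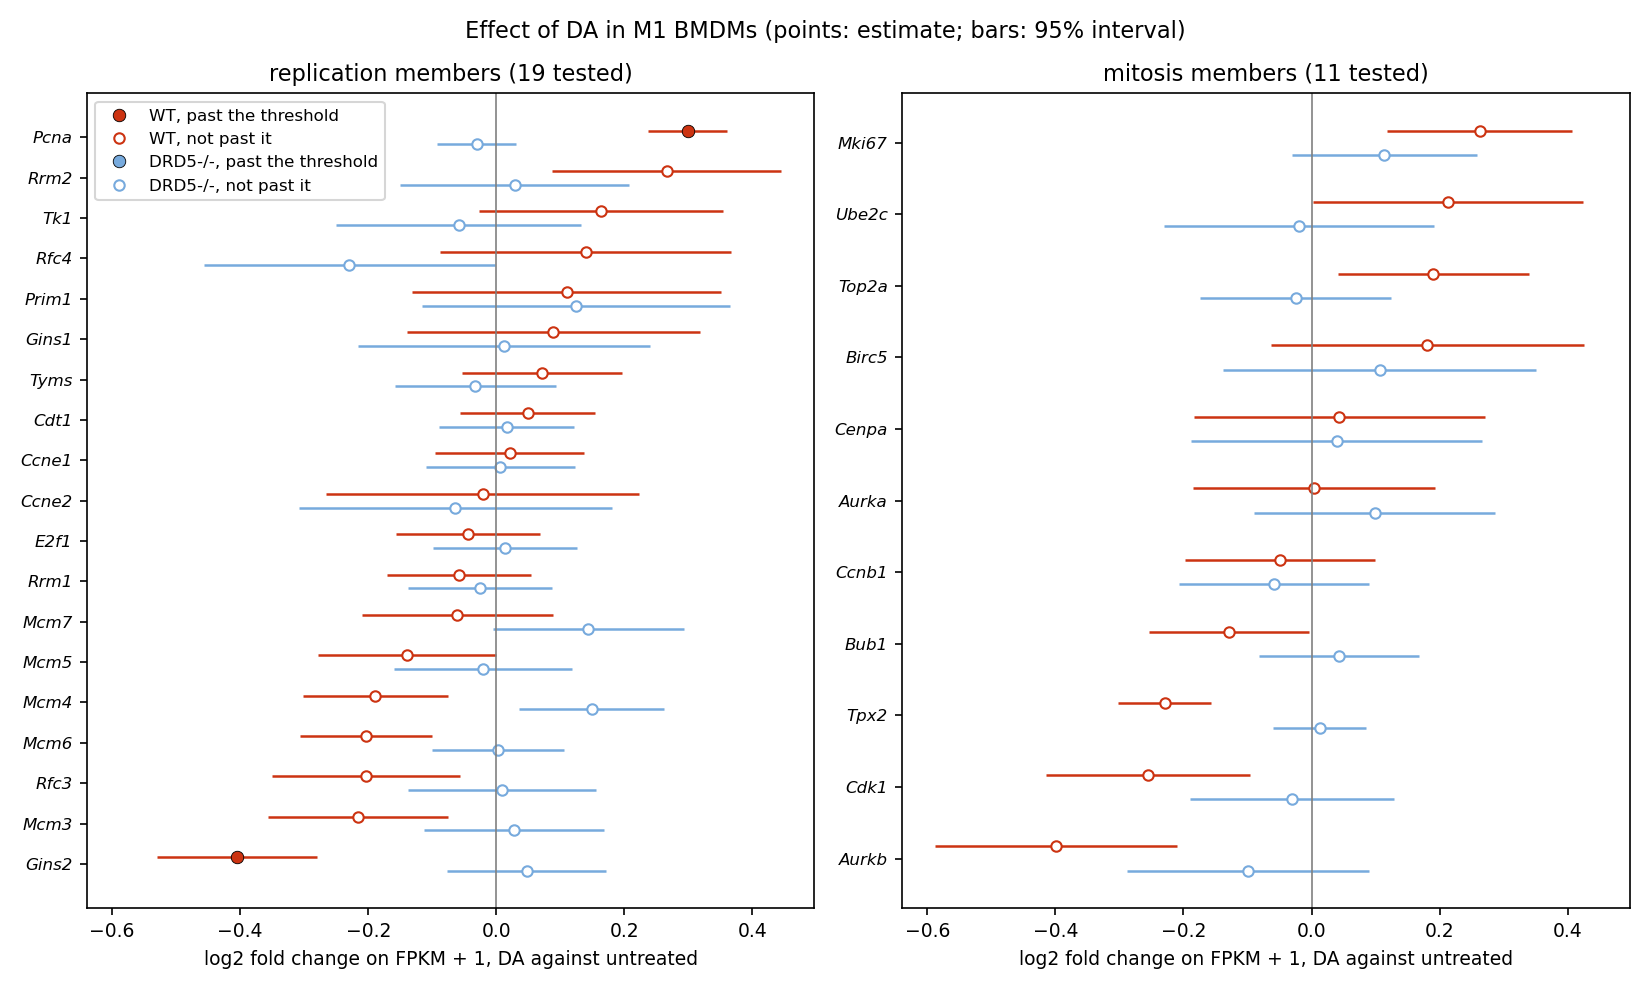
Log2 fold change on FPKM + 1 of DA against untreated in M1 cells for 19 replication members (left) and 11 mitosis members (right), with 95% intervals. Pcna (0.30) and Gins2 (-0.41) passed the threshold in WT and no member did in DRD5-/-.

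In M1 DRD5-/- cells DA moved no gene past the threshold: limma called 0 of 10040 genes, 0% higher and 0% lower, with 569 at an unadjusted p under 0.05. That includes 0 of 19 replication members, with 2 at an unadjusted p under 0.05, 1 higher and 1 lower, and 0 of 11 mitosis members, with 0 at that unadjusted level. Both medians were 0.01. For the 2 genes called in WT, Pcna had -0.03 here and Gins2 0.05.

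The DA effect in M1 WT minus that in M1 DRD5-/- passed for the same 2 replication members of 19, Pcna at 0.33 (adjusted p 3.29e-05) and Gins2 at -0.45 (adjusted p 0.000837), and for 0 of 11 mitosis members. Over all genes 3.20% were higher and 5.18% lower, so this too is near the background. At an unadjusted p under 0.05, 7 replication members (2 higher, 5 lower) and 3 mitosis members (1 higher, 2 lower) passed, beside 1204 higher and 2877 lower of all 10040 genes. Gins2 lost its call, leaving 1, when any library but M1 WT replicate 3 or DA-treated M1 DRD5-/- replicate 3 was left out (adjusted p at most 0.00312), without the filter (0.00342) and with median-of-ratios scaling (0.00293). Of all calls 38.2% were higher, and 63.5% after that scaling.

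Without DA, M1 DRD5-/- and M1 WT differed in 0 of 19 replication members and 0 of 11 mitosis members in limma, against 0.727% higher and 0.209% lower over all genes. At an unadjusted p under 0.05 there were 3 and 1, beside 2557 of all genes. With DA, M1 WT exceeded M1 DRD5-/- in limma in 1 of 19 replication members, Pcna (0.41, adjusted p 2.98e-08). It also did so in 1 of 11 mitosis members, Mki67 (0.41, adjusted p 0.000136). M1 WT was lower in 1 of 19 replication members, Gins2 (-0.44, adjusted p 1.96e-05). Each difference held in 3 of 3 libraries. Over all genes 5.95% were higher and 12.6% lower, so these counts are near the background. Neutrophil markers differed in the same comparison, 7 of 7 tested being higher in WT (S100a9 by 3.25, Ngp by 3.16), with a median of 1.67. Mki67 read 3.59, 3.64 and 3.28 FPKM in DA-treated M1 WT and 2.26, 2.25 and 2.63 in DA-treated M1 DRD5-/-. Its call was lost, leaving 0 mitosis members, without DA-treated M1 WT replicate 2 (adjusted p 0.00104). Of all calls 32.1% were higher in WT, and 52.3% after median-of-ratios scaling.

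The stimuli themselves were compared without DA, over the 11148 genes tested of those listed in both the M1 and the M2 tables. Differences in handling or sequencing between the M1 and M2 libraries and the effect of the stimulus cannot be told apart. In WT, 18 of 23 replication members were lower in M1 and 1 was higher, against 54.9% lower and 22.6% higher over all genes. The median was -1.05 for these members and -0.39 for all genes. Median-of-ratios scaling shifts the median of all genes by 0.384, after which 16 replication members were lower and 4 higher, with a median of -0.69, and 49.9% of all calls were higher in place of 29.2%.

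Mcm2, Mcm6 and Mcm7 were the lowest in M1 by this measure. Mcm2, like Cdc6, Ung and Pola1 among the members counted as lower, was under 1 FPKM in every M1 library. These genes entered the fit through the M2 libraries, where they are higher. Mcm2, for which M1 WT libraries read 0.78, 0.84 and 0.83 FPKM beside the M2 values above, had a log2 difference of -2.45 (-2.13 after scaling). Mcm6 read 4.90, 5.06 and 5.05 FPKM in M1 WT, a difference of -2.16 (-1.74), and Mcm7 -2.12 (-1.75). For Mcm2, Mcm6 and Mcm7, no M1 library reaches any M2 library of the same genotype. Pcna had -0.13 and did not pass in WT. After scaling it had 0.33 and was among the 4 replication members past the threshold as higher.

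Before scaling, Ccne1 was the 1 replication member past the threshold in the other direction. It read 16.9, 15.8 and 16.5 FPKM in untreated M1 WT and 2.64, 2.52 and 2.55 in M2 WT, a log2 difference of 2.29 (2.66 after scaling), with 3 of 3 libraries higher. E2f1 was -0.31 in WT and 0.12 after scaling, a direction that reverses with the scaling. Without M1 WT replicate 1, E2f1 and Cdc6 lost their calls and the count went from 19 to 17.

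Of 17 mitosis members 13 were lower in M1 WT and 2 higher, against 54.9% and 22.6% of all genes, with a median of -1.12 (12 lower and 2 higher after scaling, with a median of -0.82). Cdc20 read 0.42, 0.16 and 0.40 FPKM in M1 WT, a difference of -1.65 (-1.41 after scaling), while Ccnb2 had -1.59 (-1.33) and Ccna2 -1.49 (-1.22). Cdc20, Ccnb2, Ccna2, Plk1 and Kif11 were under 1 FPKM in every M1 library, and Bub1b in all but 1. These genes, all counted as lower, entered the fit through the M2 libraries, where they are higher. Tpx2 read 22.3, 22.9 and 23.2 FPKM in M1 WT and 5.26, 5.51 and 5.35 in M2 WT, a difference of 1.90 (2.31). Bub1 read at least 2 FPKM in all 3 M1 WT libraries and 0.78, 0.59 and 0.69 in M2 WT, a difference of 0.87 (1.11). Tpx2 and Bub1 are thus high in the stimulus where most mitosis members are low, with no overlap between the groups. Cenpa, the second most abundant mitosis member over these libraries, had -1.35 (-0.95).

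**Figure D5:**
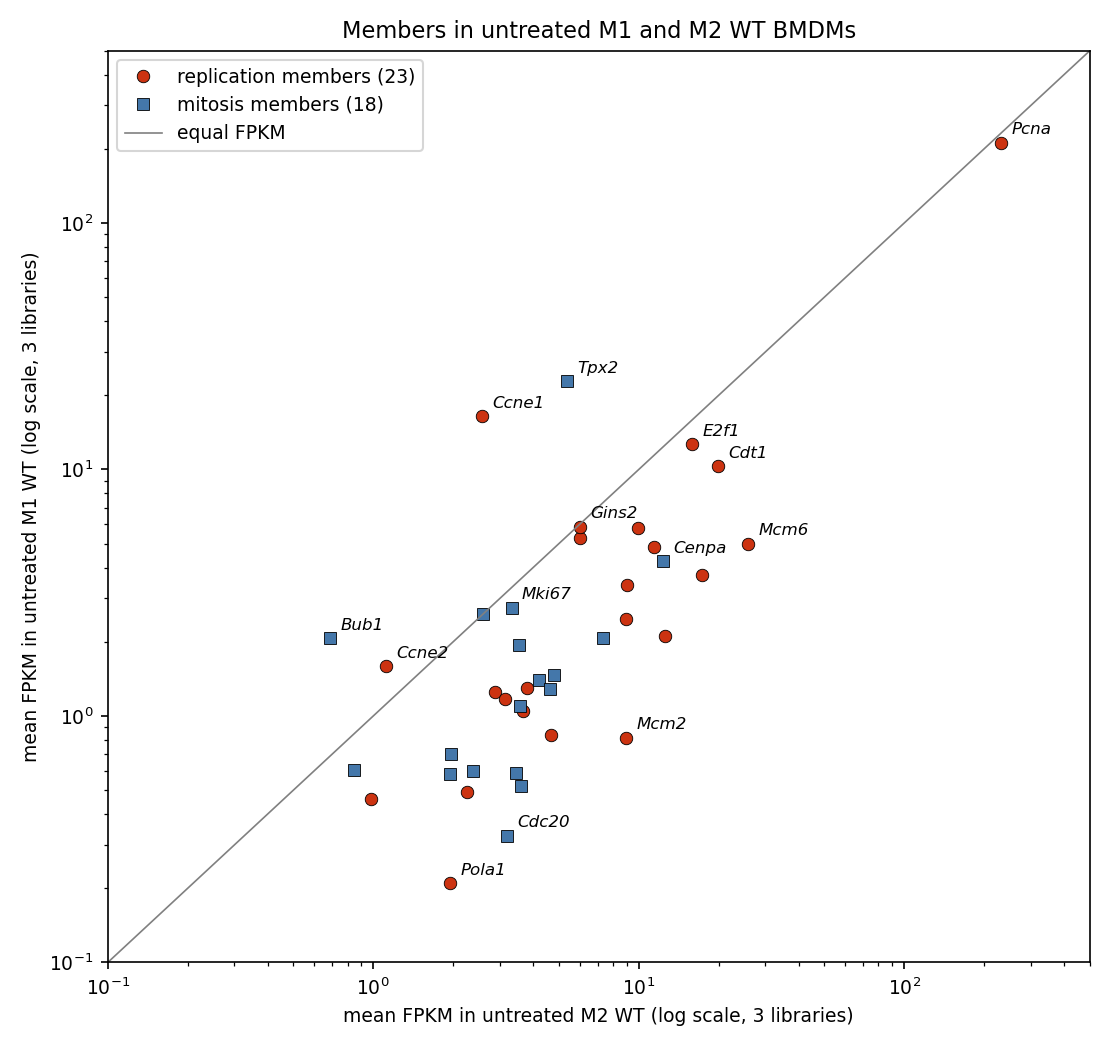
Mean FPKM of the 41 members in untreated M1 WT (vertical, log scale) against untreated M2 WT (horizontal, log scale), 3 libraries each, with the line of equal FPKM. Ccne1, Tpx2, Bub1 and Ccne2 lie above the line, and 5 members below it reverse after median-of-ratios scaling: E2f1 (-0.31 to 0.12), Pcna (-0.13 to 0.33), Gins2 (-0.03 to 0.37), Tyms (-0.16 to 0.23) and Mki67 (-0.20 to 0.14).

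In DRD5-/- cells the same comparison gave 19 of 23 replication members lower in M1 and 1 higher (Ccne1, 2.30), against 53.8% lower and 23.4% higher over all genes. The median was -1.09, and -0.79 after scaling by a shift of 0.359, when 15 were lower and 2 higher. Pcna was lower at -0.35 but 0.08 after scaling, and E2f1 lower at -0.30 but 0.10 after scaling. Of 17 mitosis members 14 were lower and 2 higher (Tpx2 1.81, Bub1 0.70), with a median of -1.19, and after scaling 13 and 2 with -0.91. Of all calls 30.4% were higher, and 49.9% after scaling. The members that entered the fit through the M2 libraries, named above for WT, are counted as lower here too.

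The effect of DA in M1 WT minus that in M2 WT tested the contrast between the stimuli directly. Of 23 replication members 22 had a smaller DA effect in M1 and 0 a larger one, against 28.2% and 17.6% of all genes, with a median of -1.44 beside -0.08. Mcm5 at -2.60, Ung at -2.54, Mcm2 at -2.27 and Gins2 at -2.01 differed most, Pcna differed by -0.50 and Mcm6 by -1.93, and Tyms did not pass. Mcm2, Cdc6, Ung and Pola1 were under 1 FPKM in every M1 library and entered this fit through the M2 libraries. Their M1 values lie near the floor of this scale, so nothing about DA in M1 is read from them. Mitosis members gave 7 smaller and 1 larger of 17, with a median of -0.11. Beside the 28.2% and 17.6% of all genes, that count is near the background. Cenpa at 1.17 was the larger, and Cdk1 at -1.10, Tpx2 at -0.87 and Bub1 at -0.78 led the smaller. Ccna2, also among the smaller, was under 1 FPKM in every M1 library too.

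That mitosis count of 8 fell to 5 without M1 WT replicate 3 and to 5 without M2 WT replicate 1, and lay between 6 and 8 without any other 1 library. Ccna2 lost its call without M1 WT replicate 2 or 3, DA-treated M1 WT replicate 1 or 2, M2 WT replicate 1 or 3, or DA-treated M2 WT replicate 1 or 3. Aurka lost it without M1 WT replicate 1 or 3, any DA-treated M1 WT library, M2 WT replicate 1 or 2, or DA-treated M2 WT replicate 1 or 3. Aurkb lost it without M1 WT replicate 2 or 3, DA-treated M1 WT replicate 3, M2 WT replicate 1 or 3, or DA-treated M2 WT replicate 2. Their adjusted p with all libraries were 0.000623, 0.000725 and 0.000334, and at most 0.00286, 0.00326 and 0.00158 in those cases. Ccna2 also lost it with a pseudocount of 0.1 (adjusted p 0.0830), no filter (0.00149) and scaling (0.00452), and Aurka with these (0.00142, 0.00198 and 0.00345) and with replicate number as a block (0.00126).

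Other genes of the same pathways showed how far the pattern in M2 WT reached. These lists, like the members, were chosen with earlier results of these data known. Of 42 other replication genes 38 were higher with DA and 0 lower, against 25.9% and 20.4% of all genes, with a median of 1.16 beside 0.03, led by Uhrf1 at 2.40, Chek1 at 1.92, Hells at 1.87 and Timeless at 1.82. Of 38 other mitosis genes 20 were higher and 1 lower, with a median of 0.37, led by Cenpm at 1.34 and Mad2l1 at 1.03. Of 18 E2F and DREAM regulators 9 were higher and 1 lower, led by Mybl2 at 1.44, the E2F partner Tfdp1 at 1.08 and Rbl1 at 0.82. Of 14 p53 targets 4 were higher and 4 lower, which is near the background, led by Btg2 at -2.21 and Gdf15 at 1.21.

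Of 14 G1 cyclins and CDK inhibitors in M2 WT, 7 were higher and 4 lower, against 25.9% and 20.4% of all genes, so the lower count is near the background. The 7 that rose with DA were Ccnd1 by 3.45, Myc by 1.48, Ccnd2 (2.68, 2.61 and 2.28 FPKM without DA, 7.15, 6.99 and 7.14 with it), Cdk6 by 1.03, the inhibitor gene Cdkn1a by 0.96, Cdk2 by 0.52 and Cdk4 by 0.49. The 4 lower were the inhibitor genes Cdkn1c at -1.59, Cdkn2d at -0.88, Cdkn2a at -0.88 and Cdkn1b at -0.66. Ccnd1, a cyclin D gene, read 20.1, 20.7 and 20.6 FPKM without DA and 230.5, 237 and 234 with it, so its groups lie far apart. The DA effect in WT minus that in DRD5-/- passed for 11 of the 14, 7 higher and 4 lower against 22.8% and 20.4% of all genes, with 3.32 for Ccnd1 and -1.58 for Cdkn1c.

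In M2 DRD5-/- the same lists gave far smaller counts, as did all genes (3.37% higher, 0.652% lower). With DA, 2 of 42 other replication genes were lower (Asf1b at -0.29, Rfc5 at -0.28) and 1 p53 target was higher (Mdm2 at 0.27), while limma called 0 of 38 other mitosis genes, 0 of 18 E2F and DREAM regulators and 0 of 14 G1 genes (6, 8 and 5 at an unadjusted p under 0.05, beside 4570 of all 10735 genes). In untreated M2 DRD5-/- against WT, 1 of 14 G1 genes (Cdkn1a at -0.60) and 2 of 14 p53 targets (Phlda3 at -0.53, Btg2 at -0.37) were lower. Over all genes 1.37% were higher and 4.15% lower. Limma called 0 of 42 other replication genes, 0 of 38 other mitosis genes and 0 of 18 E2F and DREAM regulators (7, 7 and 8 at an unadjusted p under 0.05, beside 4021 of all genes).

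In M1 WT, 4.73% of all genes were higher and 9.60% lower with DA, with 33.0% of calls higher before median-of-ratios scaling and 56.0% after. Of 32 other replication genes 2 were lower (Pold2 at -0.59, Timeless at -0.29), of 25 other mitosis genes 5 were lower, led by Ccnf at -0.69 and Pttg1 at -0.64, and of 15 E2F and DREAM regulators 1 was lower (E2f5 at -0.49), with 0 higher in each (1, 5 and 2 higher at an unadjusted p under 0.05, beside 1554 of all 10040 genes). Of 12 G1 genes, Ccnd1 at 0.42 and Cdk6 at 0.39 were higher, and Ccnd2 at -0.92, Cdkn1c at -0.56, Cdk4 at -0.48 and Ccnd3 at -0.28 were lower. Of 14 p53 targets 1 was higher (Plk2 at 0.88) and 2 lower (Sesn2 at -0.56, Btg2 at -0.49). Between the stimuli in untreated WT, 33 of 42 other replication genes and 26 of 38 other mitosis genes were lower in M1, with 3 higher in each, against 54.9% and 22.6% of all genes, and medians of -0.64 and -0.61.

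Some members share their place in the genome with other genes. The 41 members lie on 16 chromosomes, and 8 of them share exon bases with a listed gene on the opposite strand, which matters because the strand of the libraries is not stated. The pairs are Gins2 with Gse1 (2758 bases), Ccne2 with Ints8 (609), Ube2c with Tnnc2 (592), Ccna2 with Exosc9 (510), Mcm7 with Ap4m1 (321) and Cops6 (64), Rfc4 with Eif4a2 (194), Tk1 with Afmid (83) and Cdc20 with Elovl1 (53). These partners were looked at after the members' values were seen. Gse1 had log2 fold changes of 0.13 with DA in M1 WT and 0.20 in M2 WT and passed in neither, where Gins2 had -0.41 and 1.61. With DA in M2 WT, Exosc9 (0.45), Ints8 (0.31) and Eif4a2 (0.27) were higher and Ap4m1 (-0.35) lower, where their members Ccna2, Ccne2, Rfc4 and Mcm7 had 0.69, 1.62, 1.25 and 1.77. The DA effect in WT minus that in DRD5-/- in M2 passed for Exosc9 (0.50), Cops6 (0.42) and Elovl1 (0.39). With DA in M1 WT, Cops6 (-0.33) and Exosc9 (-0.31) were lower. Reads of pseudogenes named after Pcna, Tyms, Ccnb1 and Ccnb2, which the tables do not list, may be counted with these 4 members. The levels of these 4 are uncertain to that extent, and pseudogenes under other names were not searched for.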

How the data were processed

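RNA of 24 libraries was sequenced on a BGISEQ-500 by the authors, who mapped reads to GRCm38.p5 with HISAT2 according to their methods and deposited FPKM values with 2 decimals. The submitters' processing notes also name Bowtie2 2.2.5 and GRCm38.p6, and which of these made the values is not stated. No counts were used, and depth is unknown. The members and lists were chosen with earlier results of these data known. Genes at 1 FPKM or more in at least 3 libraries were kept, log2(FPKM + 1) was fitted by group means in limma 3.58.1 (R 4.3.3) with an intensity trend, for M1 (10040 genes), for M2 (10735) and jointly for genes listed in both (11148), 13 comparisons in all, and p-values were adjusted by Benjamini-Hochberg over all genes tested. Calls need an adjusted p under 0.001 and at least 1.2-fold. The fit was tested on simulated data. Tables, promoter searches and figures used Python 3.11.15, numpy 2.4.6, pandas 2.3.3 and matplotlib 3.10.9. RefSeq supplied the promoters, and the printed strand was checked against transcripts: bases after the start in 27 of 35 windows were in the gene's transcript and the reverse complement in 0. Neither was found for Mcm5, Mcm6, Mki67 and Kif11, 4 of the 7 printed.

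Any member could be named with its FPKM. Per comparison, the called members with the 4 largest log2 fold changes and the 2 members of highest mean FPKM were named in each set, and in other lists at most 4 called genes plus every called G1 cyclin or inhibitor gene. Log2 fold changes of other members were added after their values were seen. Alternatives were a pseudocount of 0.1, no filter, median-of-ratios scaling, replicate number as a block, an adjusted p of 0.05, and leaving out each library. Comparisons of DA-treated M1 with DA-treated M2 were not made. Some marker results were left out, and Mrc1 was taken alone for M2 after its values were seen.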

Additional observations from a re-analysis of the deposited data

Results flagged for a closer look

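The effect of DA differed between genotypes or between stimuli in the results below, each by a test of the difference itself in limma. In M1, WT and DRD5-/- differed in 2 replication members, Gins2 at -0.45 and Pcna at 0.33 (DA effect in WT minus that in DRD5-/-, log2), against 3.20% of all genes higher and 5.18% lower, which is near the background. Gins2 lost its call in 10 of 12 fits without 1 library, with no filter and with median-of-ratios scaling. In M2 they differed in 22 replication members, led by Ung at 2.73, Mcm5 at 2.73, Mcm2 at 2.39 and Gins1 at 2.03, and in 7 mitosis members, led by Cdk1 at 1.04, Top2a at 0.95, Cenpa at -0.93 and Ccna2 at 0.75, against 22.8% of all genes higher and 20.4% lower, which is near the background for the mitosis members.

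The DA effect in M1 WT minus that in M2 WT differed in 22 replication members, led by Mcm5 at -2.60, Ung at -2.54, Mcm2 at -2.27 and Gins2 at -2.01. It differed in 8 mitosis members, led by Cenpa at 1.17, Cdk1 at -1.10, Tpx2 at -0.87 and Bub1 at -0.78, a count that fell to 5 without M1 WT replicate 3 or M2 WT replicate 1. Over all genes 28.2% were lower and 17.6% higher, which is near the background for the mitosis members. Of the members counted, Ung, Mcm2, Cdc6, Pola1 and Ccna2 were under 1 FPKM in every M1 library.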

How the results depend on the processing

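Counts of replication members in M2 WT with DA, in WT minus DRD5-/- in M2, in WT against DRD5-/- with DA in M2 and in M1 minus M2 were 22 under every alternative and without any 1 library. Of 26 counts of members, 26 stayed within 1.5 times their value with a pseudocount of 0.1, 24 with no filter, 25 with scaling and 23 at an adjusted p of 0.05. Among 196 calls of single members in all comparisons, 194, 191, 185 and 196 kept their direction and side of the threshold in that order.

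With replicate number as a replicate block, 26 of 26 counts stayed within 1.5 times and 194 of 196 calls held, and Aurka missed the threshold in M2 WT minus DRD5-/- and in M1 minus M2 (adjusted p 0.00126 in each, range over the other alternatives up to 0.00311 and 0.00345). Replication members stayed at 22 with the block and mitosis members went from 7 to 6 and from 8 to 7. Residuals of libraries with the same number correlated at a mean of -0.0208 in M1 and -0.0160 in M2. For libraries with different numbers the means were 0.0104 and 0.00801. No shared deviation by number was seen, but these means cannot show whether same-numbered libraries share an animal or culture.

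No filter left 1 replication member in M1 WT minus DRD5-/- (Gins2 lost) and 1 in M2 DRD5-/- with DA (Ung lost), where the filter gave 2. Scaling left 1 in M1 WT minus DRD5-/-. At an adjusted p of 0.05, M1 WT with DA and untreated M1 DRD5-/- against WT each gave 1 mitosis member in place of 0, and WT against DRD5-/- with DA in M1 gave 4 replication members in place of 2. Scaling reversed E2f1 in M1 against M2 in WT (0.12) and DRD5-/- (0.10) and Pcna in DRD5-/- (0.0830). In these comparisons it shifts the median of all genes by 0.384 in WT and 0.359 in DRD5-/-. The cause of these and of the other changes was not tested.

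Counts over all genes moved by more than 1.5 times at an adjusted p of 0.05 in M1 WT minus DRD5-/- (841 to 1836), untreated M1 DRD5-/- against WT (94 to 202), M2 DRD5-/- with DA (432 to 719) and untreated M2 DRD5-/- against WT (592 to 895), and with no filter in untreated M1 DRD5-/- against WT (94 to 43).

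Leaving out 1 library gave, for replication members, 2 to 2 in M1 WT with DA, 0 to 0 in M1 DRD5-/- with DA, 1 to 2 in M1 WT minus DRD5-/-, 0 to 0 in untreated M1, 2 to 2 in M1 with DA, 0 to 2 in M2 DRD5-/- with DA, 0 to 0 in untreated M2, 17 to 19 in M1 against M2 in WT and 20 to 20 in DRD5-/-. For mitosis members it gave 0 to 0 in the first 4 of these M1 comparisons, 0 to 1 in M1 with DA, 6 to 8 in M2 WT with DA, 0 to 1 in M2 DRD5-/- with DA, 5 to 7 in M2 WT minus DRD5-/-, 0 to 0 in untreated M2, 6 to 8 in M2 with DA, 15 to 15 and 16 to 16 in M1 against M2, and 5 to 8 in M1 minus M2.

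Depth is unknown, so no counting error can be given for members near 1 FPKM.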
